A study of Homo sapiens with 6 samples.

Results

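The amino acid arm of the integrated stress response, with the cytosolic aminoacyl-tRNA synthetases, was followed in WM3248 melanoma cells given an siRNA against PPARGC1A. The members were 53 genes taken by name from the FPKM table, which holds 57688 rows: ATF4 and its partner factors, response genes, enzymes of amino acid and one-carbon synthesis, amino acid transporters, 20 synthetases and 3 scaffold proteins of the synthetase complex. All 53 were found, and 51 had a mean of at least 1 FPKM over the 6 libraries and were tested. The 2 below that level were NUPR1, a stress-induced chromatin protein (mean 0.151 FPKM), and ALDH1L2, a mitochondrial folate enzyme (mean 0.168 FPKM), and the member just above it was CHAC1 (mean 1.64 FPKM).

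WM3248 is an established line from a primary melanoma, which the labels class as VGP, and the 6 libraries all come from this line, grown in a low-serum melanocyte medium with insulin, pituitary extract and epidermal growth factor. The siNC group (n = 3) received AllStars negative control siRNA and the siPGC1a group (n = 3) received PPARGC1A siRNA, each at 30 nM with Lipofectamine 2000, and RNA was taken at 48 h. One catalogue siRNA was used per group, so the loss of PPARGC1A and other effects of that siRNA cannot be told apart. Nothing says that the 3 libraries of a group are separate cultures, so the p-values measure the spread between these libraries, which may be technical.

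Each library held 25180000 to 26440000 reads, estimated from the steps of the FPKM values. PPARGC1A was at 0.932, 1.04 and 0.947 FPKM in siNC and at 0.400, 0.354 and 0.413 FPKM in siPGC1a. The ratio of means was 0.3995, and the difference on the log2(FPKM + 1) scale was -0.51 (limma adjusted p = 0.000234). Its mean of 0.681 FPKM was below the 1 FPKM asked of the members, and it was tested regardless. Of 7 melanocyte markers 6 had a mean of at least 1 FPKM, led by DCT, a pigment enzyme. Their summed level was 645.3 to 667.3 FPKM in siNC and 474.8 to 514.4 FPKM in siPGC1a. Markers of immune cells, led by CD68 and with PTPRC at 0, summed to at most 1.31 FPKM and the 2 endothelial markers used to at most 0.171 FPKM in any library. Fibroblast markers summed to 37.6 to 38.5 FPKM in siNC and 32.1 to 34.7 FPKM in siPGC1a, most of it THY1. Keratinocyte markers summed to 20.5 to 25.8 FPKM over the libraries, nearly all of it KRT10, with KRT1 at 0. The part of these marker shifts in the results was not tested. In bulk RNA, fewer cells of a type and less RNA per cell cannot be told apart.

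ATF4 is a basic leucine zipper (bZIP) transcription factor made mostly through translation of its mRNA: when uncharged tRNA activates the kinase GCN2, or when other stress kinases act, phosphorylated eIF2 slows general translation and lets ribosomes reach the ATF4 reading frame. The level of ATF4 mRNA is therefore no direct measure of ATF4 protein. With C/EBP partners ATF4 binds composite C/EBP-ATF elements and drives genes that make, import and charge amino acids, along with feedback genes that shut the response off.

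The composite element was looked for in RefSeq promoter windows (GRCh38.p14), each of 300 bases from 250 before to 50 after an annotated start, as the word TGATGNAA on both strands. Windows were matched for 44 members, the synthetases through their newer symbols such as IARS1 for IARS, and 16 of these genes (36.4%) hold the word. It is held by 4.46% of all genes with a window and by 2.63% of the tested genes with one. Many members were picked as known targets of this response, so this share describes in part the choice of genes and says nothing of the experiment. Among the 16 holders, 11 were higher in siPGC1a, 2 were lower and 3 did not pass the test. Among the 28 without it, 14 were higher, 8 were lower and 6 did not pass. Over all genes tested 25.6% were higher and 22.5% lower. Whether holders and the others differ was not tested. A word in a window is a match of letters and not a shown binding site, and a window without it says only that these letters are not there.

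The ASNS window is shown because its nutrient-sensing pair of words is the textbook case, and the other windows because they set genes that rose (CHAC1, GARS, AARS, SLC1A5) beside genes that fell (IARS, SLC1A4) with the same word. The 120 bases before the ASNS start, chr7:97872409-97872528 on the minus strand, carry the word at -68 and, 12 bases after it, the word GTTACA at -48, both in capitals. The 30-base windows have the word alone in capitals. They lie at chr15:40953251-40953280 for CHAC1 (printed from the minus strand), chr7:30594834-30594863 for GARS (minus), chr16:70289675-70289704 for AARS (plus), chr19:46784893-46784922 for SLC1A5 (minus, at an alternative annotated start), chr9:92293692-92293721 for IARS (plus) and chr2:64989381-64989410 for SLC1A4 (minus).
ASNS: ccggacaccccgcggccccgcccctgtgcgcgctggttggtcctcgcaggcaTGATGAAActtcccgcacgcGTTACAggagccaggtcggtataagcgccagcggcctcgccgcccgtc
CHAC1: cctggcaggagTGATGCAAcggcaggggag
GARS: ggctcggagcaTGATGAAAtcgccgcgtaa
AARS: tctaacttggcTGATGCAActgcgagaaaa
SLC1A5: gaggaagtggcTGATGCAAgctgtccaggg
IARS: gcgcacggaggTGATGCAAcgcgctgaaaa
SLC1A4: ccggctggagaTGATGCAAacgggagccgc

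The members moved in both directions, with more rises than falls. Of the 51 tested members 28 were higher in siPGC1a (54.9%), 11 were lower (21.6%) and 12 did not pass an adjusted p of 0.05 in limma. Over all 12020 genes tested, 25.6% were higher and 22.5% lower, 48.1% in all, so the share of lower members was near the background and that of higher members was above it. That background covers genes of every level, and shares by level follow below. The median difference of the members was 0.15 on the log2(FPKM + 1) scale, against 0.01 for all genes tested, and single members ran from -0.69 (IARS) to 0.71 (CEBPB). In 30 members all siPGC1a values lay above all siNC values and in 11 they all lay below, where 29.8% and 27.4% of the tested genes did so (57.2% in either direction). Without siNC replicate 3 the count of lower members went from 11 to 7. Wherever the groups of a gene did not overlap, an exact permutation test (two-sided) returned 0.1, its floor for groups of this size.

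**Figure D1:**
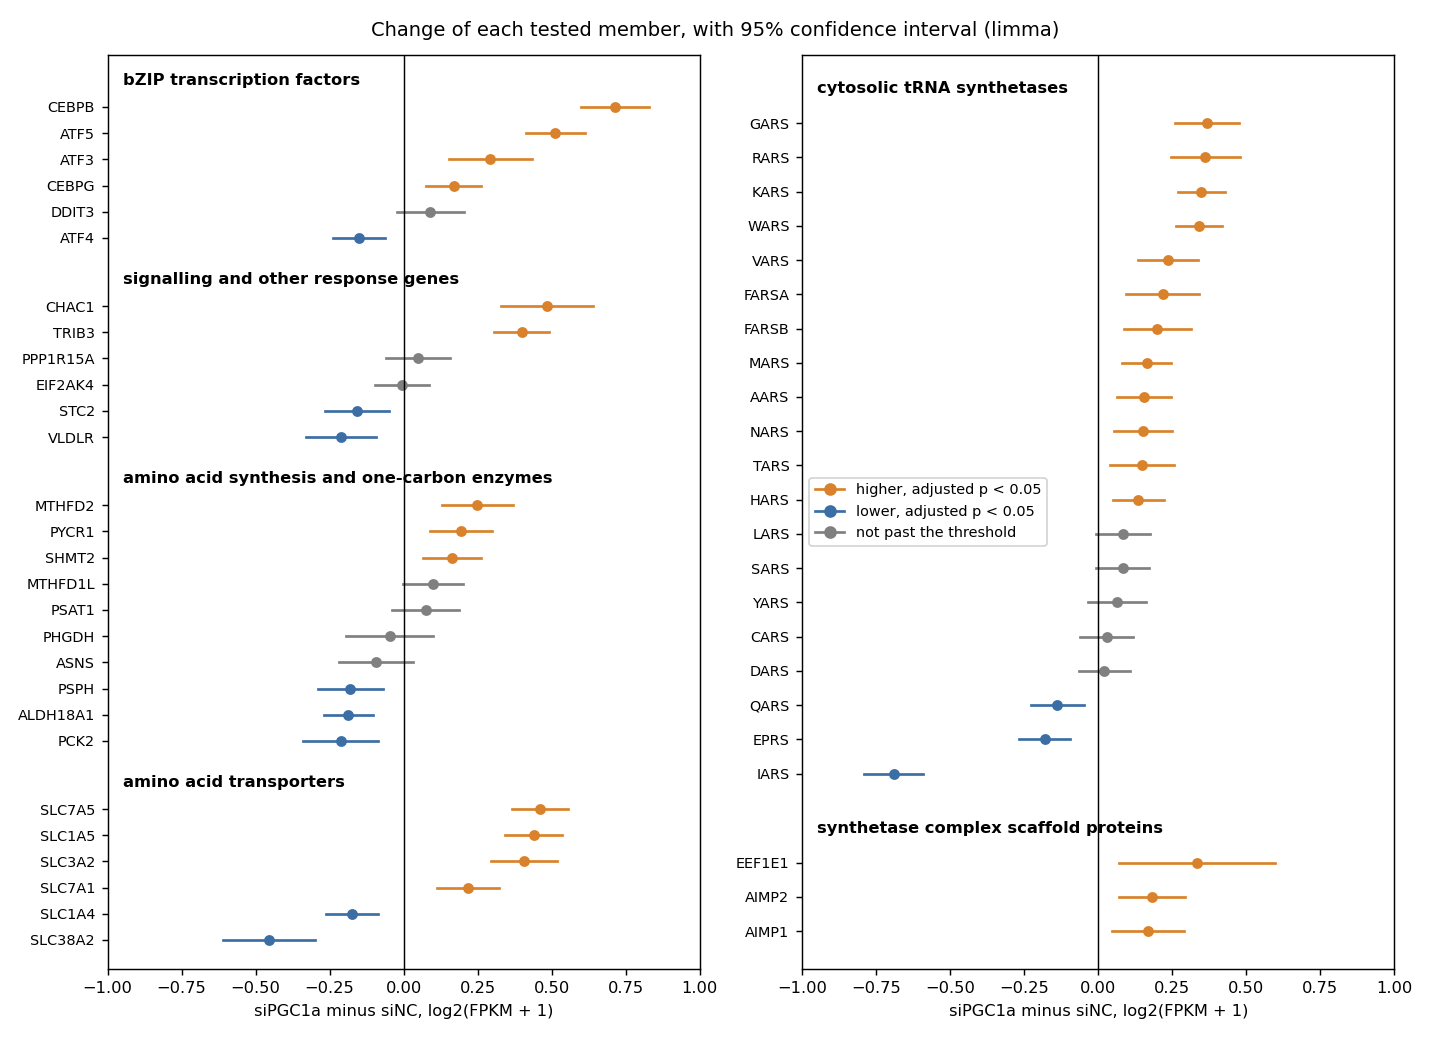
Difference of each of the 51 tested members between siPGC1a and siNC on the log2(FPKM + 1) scale, with the limma 95% confidence interval (n = 3 per group), grouped by role and coloured by call. Rises and falls stand within most groups, and IARS lies farthest below 0 and CEBPB farthest above it.

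In the comparison as a whole, genes of middle to high level leaned upward. Among all tested genes with a mean of 1 to 5 FPKM, 13.9% were higher and the median difference was -0.04. From 20 to 50 FPKM it was 40.5% higher with a median of 0.08, and from 50 to 100 FPKM 47.4% higher with a median of 0.11. At 100 FPKM and above it was 34.5% with a median of 0.04. Of the 51 tested members, 16 stand from 20 to 50 FPKM and 11 from 50 to 100 FPKM. Of the 20 synthetases, 8 and 8 stand there. The counts of both are best read against those shares. From 20 to 50 FPKM the median of the members was 0.08, as over all genes there. In the other bins that hold members it was above that of all genes. Quantile normalization gives every library the same distribution of values. After it the medians of all genes from 20 to 50 and from 50 to 100 FPKM were 0.02 and 0.02. The count of higher members went from 28 to 21 and that of higher synthetases from 12 to 7.

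**Figure D2:**
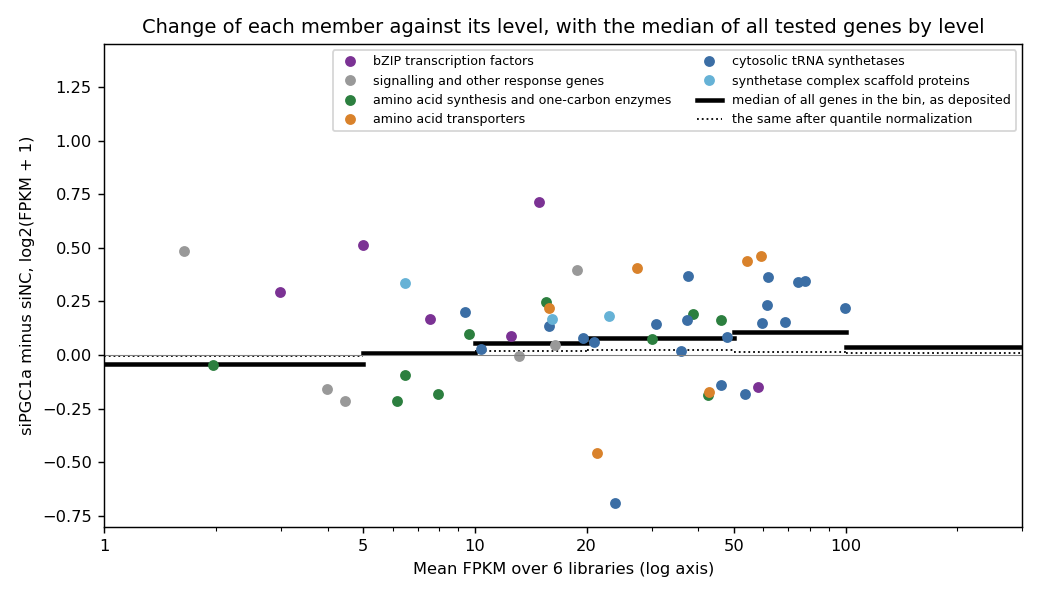
Difference between siPGC1a and siNC on the log2(FPKM + 1) scale against the mean FPKM over 6 libraries (log axis) for the 51 tested members, coloured by role. Thick bars are the median of all tested genes in each level bin and dotted lines the same after quantile normalization. The thick bars climb from -0.04 at 1 to 5 FPKM to 0.11 at 50 to 100 FPKM.

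Of the 6 bZIP factors, 4 rose (66.7%, against 25.6% of all tested genes), 1 fell and 1 did not pass. ATF4 itself was the factor that fell. It was at 58.9, 62.9 and 61.8 FPKM in siNC and at 54.5, 56.2 and 54.3 FPKM in siPGC1a, so that every siPGC1a library lay below every siNC library. The mean went from 61.2 ± 2.09 to 55.0 ± 1.06 FPKM (SD, n = 3), a ratio of 0.899 (log2 difference -0.15, SE 0.039, limma adjusted p = 0.011). The call did not hold without siNC replicate 3, where limma's adjusted p was 0.0536, the top of a span that began at 0.00131.

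CEBPB, a C/EBP factor that dimerizes with ATF4 and also serves cytokine signalling, had the largest log2 difference of the members (CHAC1 had a slightly larger ratio of means, given below). Its values were 10.8, 11.2 and 11.1 FPKM in siNC and 17.4, 19.9 and 18.9 FPKM in siPGC1a, with a wide gap between groups (ratio 1.70, log2 difference 0.71, SE 0.052, limma adjusted p = 8.78e-06). CEBPG, a short C/EBP protein without the activation domain of its relatives that pairs with ATF4, moved less, from at most 7.17 FPKM to at least 7.94 FPKM (ratio 1.14, limma adjusted p = 0.00821). Both rose in every siPGC1a library.

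ATF5, the nearest relative of ATF4 and like it controlled by upstream reading frames, was at 3.87, 3.96 and 3.94 FPKM in siNC and 6.10, 6.11 and 5.86 FPKM in siPGC1a. That is a ratio of 1.53 (log2 difference 0.51, SE 0.044, limma adjusted p = 2.25e-05). Of the ATF5 exon sequence 21.2% overlaps NUP62 on the other strand, and the strand setting of the counting was not given, so its reads may include reads of NUP62. ATF3, a stress-induced repressor and activator, was at 2.48, 2.56 and 2.68 FPKM in siNC and 3.19, 3.21 and 3.75 FPKM in siPGC1a (ratio 1.31, limma adjusted p = 0.00385), on 265 to 395 reads per library.

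DDIT3, which encodes the stress factor CHOP, did not pass. Its values of 11.6 to 12.6 FPKM in siNC and 12.2 to 13.6 FPKM in siPGC1a overlapped, and the interval of the log2 difference was -0.02 to 0.20. Of its exon sequence, 27.2% overlaps MARS, itself a member, on the other strand.

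The 6 tested genes of signalling and feedback held 2 that rose, 2 that fell and 2 that did not pass. The 33.3% in each direction is not far, in so short a list, from the 25.6% and 22.5% of all tested genes. TRIB3, a pseudokinase that holds ATF4 back and inhibits AKT, rose from 15.7, 16.1 and 16.5 FPKM to 21.2, 21.3 and 22.2 FPKM (ratio 1.34, log2 difference 0.40, SE 0.041, limma adjusted p = 6.21e-05). CHAC1, which breaks down glutathione, was at 1.07, 1.37 and 1.16 FPKM in siNC and 2.08, 1.94 and 2.21 FPKM in siPGC1a. All siPGC1a values lay above all siNC values (ratio 1.73, limma adjusted p = 0.000414), on 58 to 118 reads per library, the fewest of the tested members.

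The genes that fell here were STC2, a secreted glycoprotein, and VLDLR, a lipoprotein receptor. STC2 was at 4.04, 4.35 and 4.39 FPKM in siNC and 3.75, 3.69 and 3.69 FPKM in siPGC1a (ratio 0.872, limma adjusted p = 0.0224). Its call was lost without siNC replicate 2 and without siNC replicate 3 (adjusted p of at most 0.0938, from 0.00789 upward over the settings). VLDLR was at 5.04, 4.59 and 4.99 FPKM in siNC and 4.19, 3.85 and 4.16 FPKM in siPGC1a.

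EIF2AK4, which encodes the amino acid sensor GCN2, had the same level in both groups to within the spread, 13.3, 12.8 and 13.4 FPKM in siNC and 13.3, 12.8 and 13.2 FPKM in siPGC1a. The interval of its log2 difference was -0.10 to 0.09. PPP1R15A, encoding GADD34, which brings a phosphatase to eIF2 and ends the response, overlapped between groups as well (16.2 ± 0.853 and 16.7 ± 0.480 FPKM, n = 3, interval -0.06 to 0.155). NUPR1 was at 0.107 to 0.248 FPKM in siNC and 0.0900 to 0.154 FPKM in siPGC1a and was not tested.

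**Figure D3:**
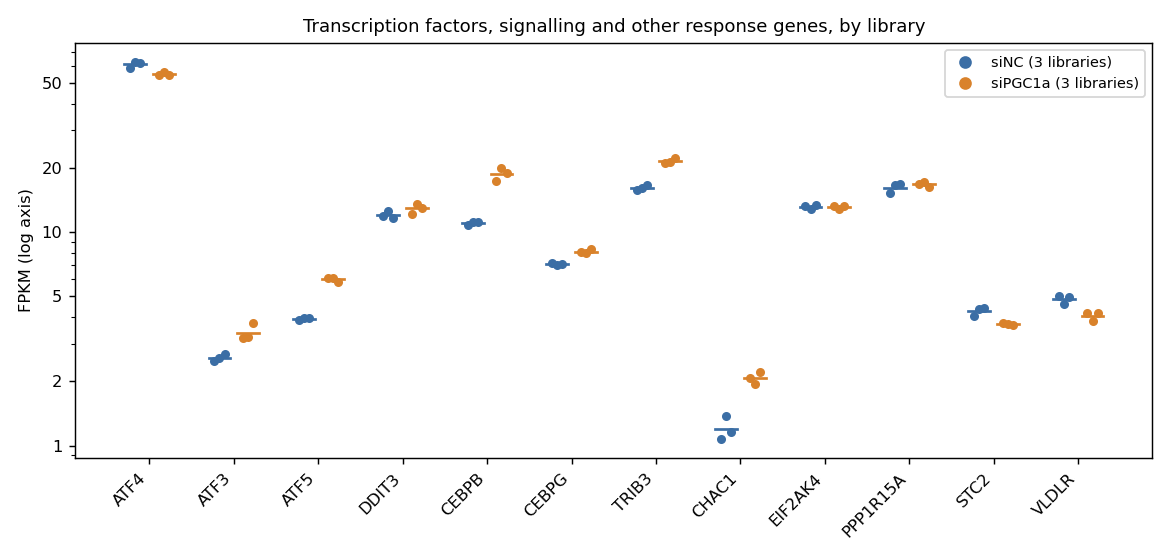
FPKM (log axis) of the tested bZIP factors and of the signalling and other response genes in the 3 siNC and 3 siPGC1a libraries; points are libraries and bars group means. CEBPB, ATF5, TRIB3 and CHAC1 stand apart upward in siPGC1a, ATF4, STC2 and VLDLR downward, and DDIT3, EIF2AK4 and PPP1R15A overlap.

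The enzymes that make amino acids split evenly. Of 10 tested, 3 rose (30.0%), 3 fell (30.0%) and 4 did not pass, against 25.6% and 22.5% of all tested genes, with a median difference of 0.01 as over all genes tested. ASNS, asparagine synthetase and the textbook ATF4 target, did not pass: its values were 6.68, 6.38 and 7.07 FPKM in siNC and 6.24, 5.83 and 6.64 FPKM in siPGC1a. The groups overlapped and the interval of the log2 difference was -0.22 to 0.03.

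Of the 3 serine pathway genes 0 rose in limma (0 also at an unadjusted p under 0.05), where 25.6% of all tested genes rose. PHGDH, its first enzyme, was low in these cells at 1.81, 2.04 and 2.18 FPKM in siNC and 1.76, 2.02 and 1.94 FPKM in siPGC1a, and PSAT1, the second, was at 28.3 to 30.9 FPKM in siNC and 29.5 to 32.5 FPKM in siPGC1a. Neither passed (limma adjusted p = 0.572 and 0.248). PSPH, the phosphatase that releases serine, fell from 8.56, 8.09 and 8.90 FPKM to 7.14, 7.41 and 7.65 FPKM (ratio 0.869, limma adjusted p = 0.0127). That call was lost without siNC replicate 3 (adjusted p = 0.0652, in a range of 0.00293 to 0.0652), and PSPH has a pseudogene copy that could share its reads.

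In the mitochondrial one-carbon pathway, which turns serine into formate, 2 of 3 tested genes rose (66.7%, against 25.6% of all tested genes). MTHFD2, the enzyme most tied to growing cells, was at 15.2, 13.2 and 13.9 FPKM in siNC and 16.4 to 17.4 FPKM in siPGC1a (ratio 1.20, log2 difference 0.25, SE 0.054, limma adjusted p = 0.00421). SHMT2, which splits serine, went from 41.5, 44.7 and 44.1 FPKM to 47.8, 50.8 and 47.7 FPKM (ratio 1.12, limma adjusted p = 0.013), a call lost under quantile normalization (adjusted p = 0.104, the highest of a range from 0.00756).

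MTHFD1L, the last step of that pathway, was above every siNC value in every siPGC1a library (9.11 to 9.34 against 9.47 to 10.3 FPKM) but did not pass (limma adjusted p = 0.0951). ALDH1L2, below the filter and not tested, was at 0.191, 0.255 and 0.242 FPKM in siNC and 0.111, 0.0960 and 0.113 FPKM in siPGC1a. Its groups did not overlap, on 21 to 56 reads per library.

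The proline pathway split between its steps. ALDH18A1, which makes the first committed intermediate from glutamate, fell from 44.6, 45.6 and 46.2 FPKM to 40.6, 39.5 and 39.4 FPKM (ratio 0.876, limma adjusted p = 0.00236). PYCR1, which closes the pathway in mitochondria, rose from 34.0, 38.0 and 36.2 FPKM to 42.2, 41.6 and 40.3 FPKM (ratio 1.15, limma adjusted p = 0.00733). PCK2, the mitochondrial PEP carboxykinase, fell from 6.64, 6.81 and 6.56 FPKM to 5.55, 6.12 and 5.20 FPKM (limma adjusted p = 0.0115), a call lost without a filter on low genes (adjusted p = 0.0531, the highest of a range from 0.00297).

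All 6 amino acid transporters passed the test, 4 higher and 2 lower, where 48.1% of all tested genes passed. The pair that forms the LAT1 exchanger of large neutral amino acids rose together. Its light chain SLC7A5 was at 48.4, 50.4 and 49.7 FPKM in siNC and 69.6, 70.8 and 65.1 FPKM in siPGC1a (ratio 1.38, log2 difference 0.46, SE 0.042, limma adjusted p = 3.26e-05). The heavy chain SLC3A2, which carries several light chains to the membrane, was at 22.2, 23.4 and 24.5 FPKM in siNC and 29.7, 32.2 and 31.9 FPKM in siPGC1a (ratio 1.34, limma adjusted p = 0.000163).

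The FPKM ratio of SLC7A5 to SLC3A2 was 2.12 ± 0.083 in siNC and 2.19 ± 0.15 in siPGC1a (n = 3, exact permutation p = 0.4), a difference within the spread of the libraries. SLC1A5, the glutamine transporter ASCT2, rose by a like amount, from 44.1, 47.8 and 45.9 FPKM to 61.4, 64.9 and 61.5 FPKM (ratio 1.36, limma adjusted p = 4.52e-05). SLC7A1, which imports arginine and lysine, went from 14.2, 15.1 and 14.2 FPKM to 17.6, 17.4 and 16.2 FPKM (ratio 1.17, limma adjusted p = 0.0038).

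SLC38A2, the SNAT2 carrier of small neutral amino acids and a well-known gene of the amino acid response, fell. It was at 26.3, 24.3 and 23.8 FPKM in siNC and 19.5, 15.9 and 18.2 FPKM in siPGC1a, with no overlap (ratio 0.720, log2 difference -0.46, SE 0.069, limma adjusted p = 0.000562). SLC1A4, the ASCT1 relative of SLC1A5, fell less, from 45.1, 46.4 and 44.7 FPKM to 41.1, 40.5 and 38.8 FPKM (ratio 0.884, limma adjusted p = 0.00499).

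**Figure D4:**
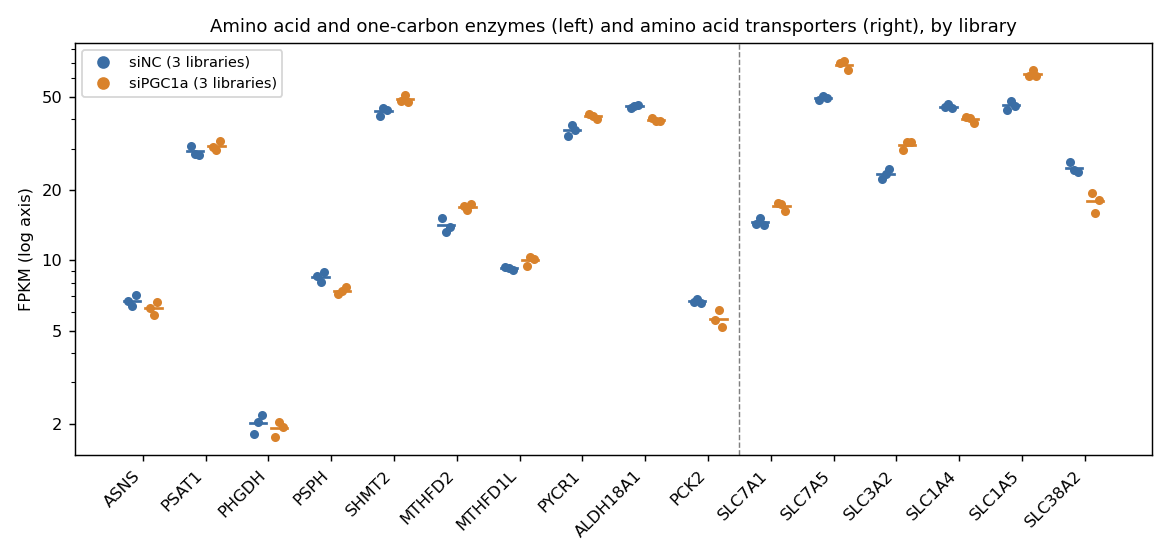
FPKM (log axis) of the 10 tested enzymes (left of the dashed line) and the 6 transporters (right) in the 3 siNC and 3 siPGC1a libraries; points are libraries and bars group means. SLC7A5, SLC3A2, SLC1A5 and SLC7A1 lie higher in siPGC1a and SLC1A4 and SLC38A2 lower, while ASNS, PSAT1 and PHGDH overlap.

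The cytosolic synthetases, which load each amino acid onto its tRNA, mostly rose by small amounts. Of 20 tested, 12 rose (60.0%), 3 fell (15%) and 5 did not pass, with a median difference of 0.15. Over all tested genes 25.6% were higher and 22.5% lower. At 20 to 50 and 50 to 100 FPKM, where most synthetases stand, 40.5% and 47.4% were higher. Under quantile normalization the count of higher synthetases was 7. Their summed level was 838.1 to 851.0 FPKM in siNC and 937.7 to 941.4 FPKM in siPGC1a. By level per length, FARSA stood highest (99.9 FPKM over the 6 libraries in the mean) and FARSB lowest (9.42 FPKM), although both encode subunits of the same phenylalanyl enzyme. Their ratio was 10.6 in both groups (SD 0.75 and 1.2, n = 3 each), and each rose by a ratio of 1.17.

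The largest rises were those of GARS, RARS, KARS and WARS. GARS, whose gene serves glycine charging in the cytosol and in mitochondria, was at 34.3, 31.7 and 32.2 FPKM in siNC and 42.6, 40.4 and 44.4 FPKM in siPGC1a (ratio 1.30, log2 difference 0.37, SE 0.048, limma adjusted p = 0.000236). KARS, the lysyl enzyme of both compartments, was at 68.6, 67.4 and 69.0 FPKM in siNC and 85.3, 87.1 and 89.1 FPKM in siPGC1a (ratio 1.28, limma adjusted p = 5.66e-05). No library of one group came near the other for either gene.

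RARS, the arginyl enzyme, rose from 54.9, 52.4 and 54.1 FPKM to 68.2, 65.4 and 75.1 FPKM (ratio 1.29, limma adjusted p = 0.0004). WARS, the tryptophanyl enzyme, which interferon also induces, rose from 64.6, 66.9 and 64.5 FPKM to 83.3, 82.7 and 83.1 FPKM (ratio 1.27, limma adjusted p = 5.55e-05). The other 8 that rose, VARS, FARSA, FARSB, MARS, AARS, NARS, TARS and HARS, did so at ratios of 1.11 to 1.18. Under quantile normalization AARS, HARS, NARS, TARS and FARSA lost their calls (highest adjusted p = 0.232, for AARS). HARS also lost it without siNC replicate 1, and NARS without siNC replicate 2 or siPGC1a replicate 1. TARS lost it in 7 of 15 settings, among them those without siNC replicate 2 or 3 or siPGC1a replicate 1 or 3 (adjusted p of 0.0119 to 0.178).

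IARS, the isoleucyl enzyme, had the deepest of the 3 falls among the synthetases. It was at 31.0, 28.3 and 30.0 FPKM in siNC and 18.4, 17.8 and 17.8 FPKM in siPGC1a, and every siPGC1a value was far below every siNC value. The mean fell from 29.8 ± 1.35 to 18.0 ± 0.346 FPKM (n = 3), a ratio of 0.606 (log2 difference -0.69, SE 0.044, limma adjusted p = 4.59e-06). IARS2, its mitochondrial counterpart, named here after its values were seen, overlapped between groups at 73.2 to 75.1 and 72.6 to 78.3 FPKM.

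EPRS, a fused enzyme for glutamate and proline, fell from 58.5, 55.0 and 57.0 FPKM to 50.1, 49.0 and 50.9 FPKM (ratio 0.880, limma adjusted p = 0.00389). QARS, the glutaminyl enzyme, fell from 46.6, 49.9 and 48.4 FPKM to 44.2, 44.6 and 42.6 FPKM (ratio 0.907, limma adjusted p = 0.0185), a call lost without siNC replicate 2 and without siNC replicate 3 (adjusted p of at most 0.0777, from 0.00285 upward). The 5 that did not pass were LARS, SARS, YARS, CARS and DARS, with log2 differences of 0.02 to 0.08.

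A set of 8 synthetases sits with 3 scaffold proteins in a large multi-synthetase complex, and IARS, EPRS and QARS all belong to it. Of the 8 complex synthetases 3 rose (KARS, RARS, MARS), 3 fell and 2 did not pass (37.5% higher and 37.5% lower). Of the 12 free ones 9 rose (75%), 0 fell in limma (0 also at an unadjusted p under 0.05) and 3 did not pass. Over all tested genes 25.6% were higher and 22.5% lower, and at 20 to 50 and 50 to 100 FPKM 40.5% and 47.4% were higher. Whether the complex and free lists differ was not tested. The ratio of IARS to KARS, both complex members, was 0.452, 0.420 and 0.435 in siNC and 0.216, 0.205 and 0.200 in siPGC1a. That of EPRS to KARS was 0.831 ± 0.019 in siNC and 0.574 ± 0.012 in siPGC1a (n = 3, exact permutation p = 0.1 for each). These pairs were picked after their values were seen. As IARS and EPRS lay lower and KARS higher in every siPGC1a library, that p was bound to be at its floor.

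The scaffold proteins AIMP1, AIMP2 and EEF1E1 all passed in the upward direction at ratios of 1.13, 1.14 and 1.32, where 25.6% of all tested genes did. EEF1E1 was at 6.36, 5.48 and 4.93 FPKM in siNC and 7.20, 5.99 and 8.88 FPKM in siPGC1a, so that its groups overlapped (limma adjusted p = 0.0392, exact permutation p = 0.2). Its log2 difference of 0.33 was 0.21 without siPGC1a replicate 3, and ran from there to 0.455 over the fits without 1 library. These calls were not firm: the count of scaffold genes called higher was 0 without a filter and 0 without siNC replicate 2, and 1 without siNC replicate 3 or without siPGC1a replicate 3. AIMP2 shares 28.9% and AIMP1 11.6% of its exon sequence with a gene on the other strand, EIF2AK1 and TBCK.

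The synthetases were also split by whether they are commonly listed as ATF4 targets. Of 11 so listed, 6 rose, 2 fell and 3 did not pass (median 0.15), and of the other 9, 6 rose, 1 fell and 2 did not pass (median 0.20). The shares higher were 54.5% and 66.7% and those lower 18.2% and 11.1%, against 25.6% and 22.5% of all tested genes. At 20 to 50 and 50 to 100 FPKM 40.5% and 47.4% of all tested genes were higher. Whether these subgroups differ was not tested.

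**Figure D5:**
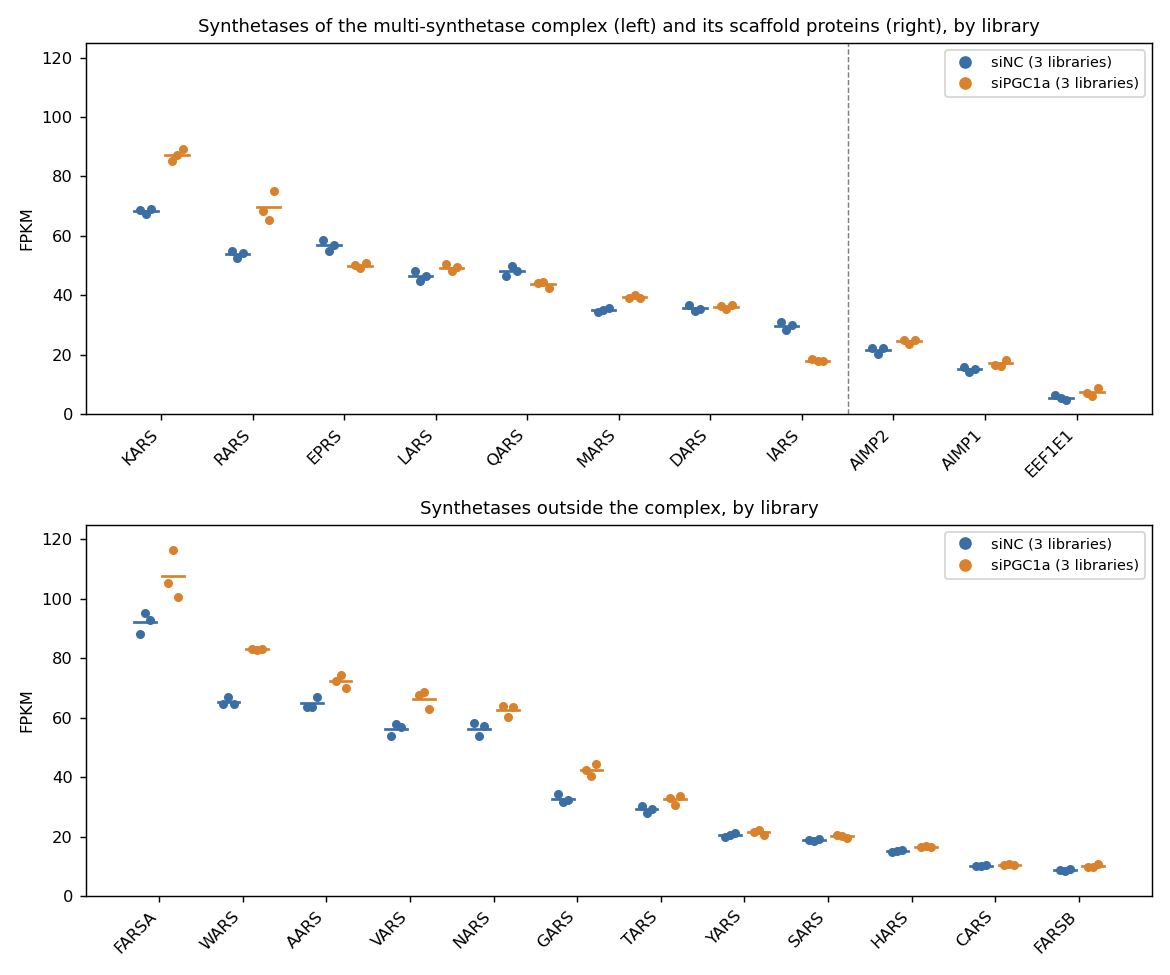
FPKM of the 8 complex synthetases and 3 scaffold genes (upper) and of the 12 free synthetases (lower), ordered by level, in the 3 siNC and 3 siPGC1a libraries; points are libraries and bars group means. KARS, RARS, WARS and GARS stand higher in siPGC1a, and IARS, EPRS and QARS, all in the upper plot, stand lower.

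A 6-base word, ACACCT, had been met more often in the 3' UTR of lower genes in earlier work on these data, so its occurrence in the members is a description and no independent support. Over the longest annotated 3' UTR of each gene (GENCODE v29, GRCh38), 33.8% of the tested genes hold the word, and 9 of the 51 tested members do. Of the 11 lower members 5 hold it, IARS, SLC38A2, VLDLR, STC2 and PSPH, and of the 28 higher members 2 do, HARS and TARS. Among the 12 that did not pass, LARS and PPP1R15A hold it. IARS and SLC38A2, the 2 tested members with the deepest falls, are among the holders, while ATF4, EPRS, QARS, SLC1A4, ALDH18A1 and PCK2 fell without it. The lower holders have 3' UTRs of 695 (PSPH) to 6185 bases (VLDLR). Those of the lower members without it have 83 (ATF4) to 2719 bases (SLC1A4), with QARS at 97, EPRS at 205 and PCK2 at 258. Length was not taken into account. Both members below the filter hold it as well, ALDH1L2 at 2 sites and NUPR1 at 3. The sites of IARS and SLC38A2 are shown in the transcript strand with the word in capitals, at bases 514 and 676 of the 1068-base IARS 3' UTR on chromosome 9 and at base 1161 of the 2922-base SLC38A2 3' UTR on chromosome 12. Whether the word plays a part in these falls was not tested.
IARS, first site: tccctaattACACCTatcccctac
IARS, second site: taaccttagACACCTatgcagtca
SLC38A2: ccacaggttACACCTatgtttgat

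Around the members, the machinery that sets off the response was tested too. Of 14 genes for eIF2 kinases, eIF2 and its exchange factor eIF2B, 9 rose (64.3%), 2 fell (14.3%) and 3 did not pass. Over all tested genes 25.6% were higher, and in the level bins from 5 to 100 FPKM, which hold this list, 24.2% to 47.4% were. The eIF2B subunits EIF2B5, EIF2B3 and EIF2B4 rose at ratios of 1.29, 1.35 and 1.25. IMPACT, a protein that restrains GCN2, fell from 9.67, 9.25 and 8.76 FPKM to 7.33, 7.18 and 7.43 FPKM (limma adjusted p = 0.000705), and EIF2B2 fell at a ratio of 0.925. The count of lower genes in this list was 1, not 2, without any single library other than siPGC1a replicate 3.

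Further ATF4 targets went both ways, with 4 of 11 tested higher (36.4%) and 3 lower (27.3%), near the 25.6% and 22.5% of all tested genes. GDF15, a stress cytokine, rose from 48.4 ± 2.83 to 110.7 ± 6.02 FPKM (n = 3). SESN2, which restrains mTORC1 when leucine is short, rose at a ratio of 1.33 and XPOT, the tRNA exporter, at 1.28. JDP2 fell at a ratio of 0.627, KLHL24 at 0.785 and DDIT4, an mTORC1 inhibitor, at 0.889.

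Of 17 mitochondrial synthetases tested, 5 rose, 0 fell in limma (0 also at an unadjusted p under 0.05) and 12 did not pass, with a median of 0.02. The 29.4% called higher stood near the 25.6% of all tested genes, and the count was 3 without siPGC1a replicate 2. YARS2 rose at a ratio of 1.30 and CARS2 at 1.17. The difference between the cytosolic and mitochondrial lists was not tested.

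Other enzymes of amino acid and one-carbon metabolism gave 4 higher (40.0%), 1 lower (10%) and 5 not past of 10 tested, where all tested genes gave 25.6% and 22.5%. SFXN1, which carries serine into mitochondria, rose from 13.1, 12.8 and 12.6 FPKM to between 19.5 and 20.8 FPKM (ratio 1.56, limma adjusted p = 7.34e-06). MTHFD1, the cytosolic one-carbon enzyme, and TYMS, which uses one-carbon units for thymidylate, rose at ratios of 1.25 and 1.22. GLUL, glutamine synthetase, fell at a ratio of 0.791, and the count of lower genes was 2 without siPGC1a replicate 3.

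Genes of the endoplasmic reticulum stress response, which can also lead to phosphorylated eIF2 through another kinase, went mostly down. Of 10 tested, 7 fell (70.0%, against 22.5% of all tested genes), 1 rose and 2 did not pass. PDIA4, a protein disulfide isomerase, fell from 340 ± 6.34 to 195 ± 5.77 FPKM, HSPA5 (BiP) at a ratio of 0.818 and CALR at 0.866 (n = 3), and SDF2L1 was the riser, at 1.17.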

How the data were processed

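Per the labels, poly(A) RNA was sequenced from 3 siNC and 3 siPGC1a libraries as stranded single reads. The deposited table gives FPKM per gene and library, computed by the authors. Tools listed, per the submitters' processing notes, are STAR, Picard, featureCounts and DESeq2, and the build is hg19, but not what each tool did. The strand setting of the counting is not given in the sources used here. Values were taken as log2(FPKM + 1), genes with a mean of at least 1 FPKM (and PPARGC1A) were kept, and groups were compared with limma 3.58.1 in R 4.3.3 (trend, two-sided, no block, Benjamini-Hochberg over 12020 genes, threshold 0.05). Fold changes on that scale understate those of low genes, and ratios are of mean FPKM. The script was tested on simulated data.

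The members and lists were chosen with earlier results of these data known. Named genes were all members, PPARGC1A, the 3 smallest adjusted p per direction of each other list, and the top marker of each cell type. IARS2 and the markers at 0 (PTPRC, KRT1) are named outside this rule, and 1 gene that it names is not reported here. GCN1L1 and PYCRL were matched as GCN1 and PYCR3. Depth came from FPKM steps of miRNA genes with GENCODE v29 lengths: 96.7 to 100.0% of low values were whole within 0.1 read, against 20.0% by chance. Reads per member are estimates from it. No library copied another: the chi-square per degree of freedom was 2.18 to 7.23 within groups. Besides the overlaps named with the results, HARS, KARS, MARS, WARS, YARS, SHMT2 and SLC1A5 overlap a tested gene on the other strand over at most 5.6% of their exons for any one such gene. Other settings changed the pseudocount, filter, scaling, trend, weights, block and libraries.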

Additional observations from a re-analysis of the deposited data

How the results depend on the processing

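Of the 39 called members, 25 kept their direction and call in every other setting that could test them, 14 lost the call in at least 1 and 0 changed sign. Of the 12 not past, 2 became called in 1 setting each (MTHFD1L and LARS). Sign changes were limited to members near 0: EIF2AK4 ran from -0.026 to 0.01 without single libraries (0.001, 0.008 and 0.01 without siNC replicate 1, siNC replicate 3 and siPGC1a replicate 2), PHGDH to 0.003, CARS to -0.008 and DARS to -0.04 under quantile normalization, and DARS to -0.003 at equal summed FPKM. Quantile normalization gave 21 higher members (28 in the main fit), 7 higher synthetases and 2 lower genes among the further amino acid and one-carbon enzymes. At a mean of at least 5 FPKM, which drops low members, 2 bZIP factors were higher, and 1 response gene was higher and 0 lower. There 1607 of 7272 genes were lower, against 2707 of 12020 in the main fit, with fewer genes tested. Without a filter 22 of 53 members, 9 cytosolic synthetases, 0 scaffold genes and 3 mitochondrial synthetases were higher. Without the trend 1 gene of the eIF2 list was lower. Leaving out single libraries gave 23 to 28 higher and 7 to 11 lower members, 0 to 1 lower bZIP factors and 1 to 2 lower response genes. It also gave 0 to 3 higher scaffold genes, 3 to 5 higher mitochondrial synthetases, 1 to 2 lower genes of the eIF2 list and 1 to 2 lower further enzymes. Deviations of same-numbered libraries from their group means had correlations of 0.077, 0.261 and -0.058 across genes. Those of libraries with unlike numbers ran from -0.331 to 0.253. With 3 libraries centred per group, these values cannot decide whether the numbers pair the libraries. A replicate block gave 28 higher and 11 lower members and 2 lower further enzymes. Depth limits CHAC1, NUPR1 and ALDH1L2 most.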
